A study of Mus musculus with 6 samples.

Results

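Expression of 10 transcription factors of the megakaryocyte lineage, Gata1, Gata2, Zfpm1, Fli1, Runx1, Nfe2, Tal1, Gfi1b, Meis1 and Mef2c, was examined in CD41+ cells lacking Txnip and in wild-type CD41+ cells. The 10 were chosen by gene symbol, and each had 1 row among the 24410 gene symbols of the deposited expression table. The knockout group held 3 libraries from Txnip -/- mice (KO 1 to KO 3) and the wild-type group 3 libraries (WT 1 to WT 3). All mice were 5 months old and of the C57BL/6 strain. Lineage-negative bone marrow cells, which are depleted of mature blood cells, were kept for 3 days in SFEMII, an expansion medium for blood progenitors, to which 10% FBS, stem cell factor (Scf, 100 ng/mL) and thrombopoietin (mTpo, 20 ng/mL) were added. Thrombopoietin is the main growth factor of megakaryocytes. Cells carrying CD41, the integrin chain encoded by Itga2b, were then sorted and their RNA was sequenced. The labels name no Cre line or promoter for the knockout, and a progenitor culture of this kind also holds cells of other lineages. Whether the 3 libraries of a genotype came from separate mice is not stated, so the p-values measure only the spread between these libraries, which may be partly technical.

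Megakaryocytes arise from stem and progenitor cells under a small set of factors that bind their target genes together. GATA2 acts in progenitors and gives way to GATA1, which works with the cofactor FOG1 (encoded by Zfpm1). TAL1 joins the GATA proteins through the bridging proteins LMO2 and LDB1, the ETS factor FLI1 and RUNX1 drive megakaryocyte genes, and NF-E2 (its large subunit is encoded by Nfe2) controls late genes needed to release platelets.

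The upstream sequences of the genes are shown for the 4 factors that differed most with the replicate number and for Gfi1b, where a GATA match was found. Each run is the 250 bases before the annotated start from RefSeq on GRCm38.p6, a build other than that of the expression table, read 5′ to 3′ in the direction of the gene. For genes with more than 1 annotated start the first listed is shown. Capitals mark matches on either strand to GATA motifs (AGATAA or TGATAA, and AGATAG or TGATAG), ETS motifs (AGGAAG or CGGAAG), RUNX motifs (TGTGGT or TGCGGT), the CACC box (CCACCC) and the NF-E2 motif (TGAGTCA or its complement TGACTCA). Both strands were searched in each run.
Gata2, chr6:88193641-88193890, plus strand: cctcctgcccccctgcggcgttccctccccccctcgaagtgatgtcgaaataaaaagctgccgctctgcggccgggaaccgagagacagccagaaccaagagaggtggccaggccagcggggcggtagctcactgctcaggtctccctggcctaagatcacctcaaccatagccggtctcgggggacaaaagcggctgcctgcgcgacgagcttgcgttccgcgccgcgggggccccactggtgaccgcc
Runx1, chr16:92826075-92826324, minus strand: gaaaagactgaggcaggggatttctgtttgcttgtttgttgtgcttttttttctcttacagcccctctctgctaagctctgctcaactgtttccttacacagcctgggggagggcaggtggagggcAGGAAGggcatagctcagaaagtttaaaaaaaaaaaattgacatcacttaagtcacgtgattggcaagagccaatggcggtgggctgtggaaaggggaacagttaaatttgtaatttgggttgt
Zfpm1, chr8:122281891-122282140, plus strand: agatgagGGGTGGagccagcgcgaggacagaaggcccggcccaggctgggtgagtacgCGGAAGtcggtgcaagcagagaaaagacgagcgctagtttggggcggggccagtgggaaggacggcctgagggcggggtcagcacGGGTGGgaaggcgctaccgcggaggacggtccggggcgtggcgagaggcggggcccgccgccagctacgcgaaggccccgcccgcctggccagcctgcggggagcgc
Tal1, chr4:115056176-115056425, plus strand: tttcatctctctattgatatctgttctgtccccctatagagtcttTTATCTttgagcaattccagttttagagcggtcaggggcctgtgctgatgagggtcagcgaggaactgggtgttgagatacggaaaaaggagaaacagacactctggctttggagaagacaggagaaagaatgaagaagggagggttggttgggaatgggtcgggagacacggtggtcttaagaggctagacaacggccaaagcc
Gfi1b, chr2:28621983-28622232, minus strand: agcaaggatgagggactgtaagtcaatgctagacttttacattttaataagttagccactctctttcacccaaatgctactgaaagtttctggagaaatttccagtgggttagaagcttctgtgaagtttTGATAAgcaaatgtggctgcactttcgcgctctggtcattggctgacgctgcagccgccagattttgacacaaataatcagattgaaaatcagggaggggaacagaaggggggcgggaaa
Of the 10 factors 8 had upstream windows in RefSeq's table, 13 windows in all; Fli1 and Nfe2 were not matched. GATA motifs occurred in 2 of the 13 windows (15.4%), against 26.5% of the 32851 windows of the same length over all genes. In the Tal1 window the match began 205 bases before the start, and in the Gfi1b window 120 bases before it. ETS motifs occurred in 6 of 13 (46.2%, against 39.2% over all genes), the CACC box in 5 (38.5%, against 28.1%), RUNX motifs in 1 (7.69%, against 18.6%) and the NF-E2 motif in 0 (against 4.46%). No matches of different motifs overlapped in these windows. The Gata2 run holds none of these motifs, which says nothing about binding by the factors.

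The genotype labels were checked first. Txnip, which encodes thioredoxin-interacting protein, was listed at 0, 0.04 and 0 FPKM in KO 1 to KO 3, against 112, 228 and 143 FPKM in WT 1 to WT 3 (FPKM is the number of fragments scaled by transcript length and by the depth of the library). The difference was -7.26 (SE 0.28) on the log2(FPKM + 1) scale (limma, adjusted p = 2.02e-05). The spacing of low values gave approximate depths of 14400000 to 25900000 fragments in the KO libraries and 19200000 to 19800000 fragments in the WT libraries. The estimates for KO 2 and WT 3 rest on 69 and 92 genes, fewer than the others. For KO 1, which gave the lowest depth, the best spacing scored 0.657 and the next best 0.535. In WT 1 these scores were 0.597 and 0.439, so the depths of KO 1 and WT 1 are uncertain too. The lowest value of any of the 10 factors was 12.1 FPKM, and counting error was not estimated apart from the spread between libraries. The cells held megakaryocyte transcripts: the 6 markers listed for that lineage summed to between 635 and 1757 FPKM in KO libraries and between 616 and 1610 FPKM in WT libraries. They also held transcripts of neutrophils or their progenitors. The 9 markers listed as neutrophil summed to between 3843 and 8813 FPKM in KO libraries and between 5817 and 7431 FPKM in WT libraries. Monocyte and macrophage markers, 10 in number, summed to 1464 to 2096 FPKM in KO libraries and 999 to 2072 FPKM in WT libraries. Sums of the 8 mast cell and basophil markers were 425 to 963 FPKM in KO libraries and 754 to 1191 FPKM in WT libraries. The 8 red cell markers summed to between 21.2 and 58.1 FPKM in KO libraries and between 40.6 and 65.1 FPKM in WT libraries. Markers of B and T cells summed to at most 1.15 FPKM in any KO library and at most 0.45 FPKM in any WT library, and Cd3e was listed at 0 throughout. KO 1, KO 2, WT 1 and WT 2 expressed Y-linked genes such as Ddx3y, while KO 3 and WT 3 expressed Xist. Number 3 of each genotype thus came from other mice than numbers 1 and 2. Whether numbers 1 and 2 came from separate mice is not known. KO and WT libraries of the same number deviated together from their group means (r of 0.81, 0.59 and 0.38 across 11249 genes for numbers 1, 2 and 3), and such libraries are called a pair here.

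All 10 factors were expressed in every library at levels that FPKM, being scaled by length, allows to be set side by side. Nfe2, Gata2 and Fli1 had the highest means in both genotypes. Mean levels placed them between percentile 58.4 (Mef2c) and percentile 93.4 (Nfe2) of the 11249 genes tested. Nfe2 was the highest of the 10 in 5 of 6 libraries and second to Gata2 in KO 1. Fli1 ranked 2 in 4 libraries and 3 in the other two, those of number 1. Below Nfe2, Gata2 and Fli1, Meis1, Zfpm1, Tal1, Runx1, Gata1, Gfi1b and Mef2c had means over all libraries between 26.4 and 18.3 FPKM, and the ranges of neighbours in this order overlapped.

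**Figure D1:**
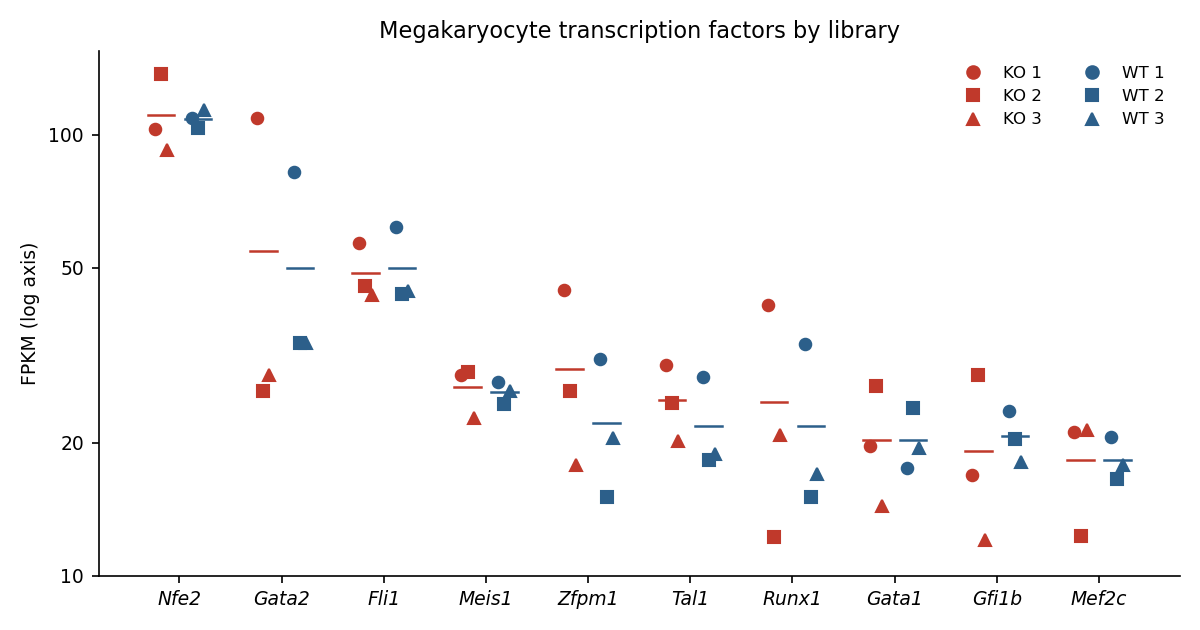
FPKM (log axis) of the 10 transcription factors in each library, KO in red left of WT in blue, with a bar at each group mean and 1 symbol shape per replicate number. KO and WT libraries overlap for every factor, and Gata2, Runx1 and Zfpm1 are highest in the number 1 libraries of both genotypes.

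No factor of the 10 passed the test for a difference between genotypes, which was run across all genes (limma on log2(FPKM + 1), threshold of 0.05 on the Benjamini-Hochberg adjusted p). The test called 2 of 11249 genes, Txnip and Cd1d2, a background of 0.0178%. With the replicate number as a block it called Mnd1 as well, 3 genes in all (0.0267%), and 0 of the 10 factors in either fit. At an unadjusted p under 0.05 the counts among the 10 were 0 without the block and 0 with it, against 0.676% and 6.93% of all genes tested. The estimates were higher in KO for 5 factors and lower for 5, with a median difference of -0.01 on the log2 scale, against 0.06 for all genes tested. The medians of the 10 within pairs 1 to 3 were 0.07, 0.20 and -0.19. In 0 of the 10 factors did the 3 KO libraries lie apart from the 3 WT libraries, against 4.35% of all genes (3.32% with KO above and 1.03% with KO below). The factors lower in KO in 3 of 3 pairs numbered 0, against 8.68% of all genes. In such bulk libraries fewer cells of a type and less RNA per cell cannot be told apart.

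GATA1, the factor that drives megakaryocyte and red cell maturation, had 19.7, 27.0 and 14.4 FPKM in KO 1 to KO 3, against 17.5, 24.0 and 19.5 FPKM in WT 1 to WT 3. Gata1 averaged 20.3 ± 6.32 FPKM in KO and 20.3 ± 3.31 FPKM in WT (SD, n = 3 each). KO 2 and WT 2 were the highest library of their genotype, and KO 3 was the lowest of all 6. The difference was -0.03 (SE 0.27) on the log2 scale, with a 95% interval of -0.64 to 0.57 (limma, adjusted p = 1.00). Zfpm1, whose product FOG1 binds GATA1, had 44.4, 26.3 and 17.8 FPKM in KO 1 to KO 3, against 31.1, 15.1 and 20.5 FPKM in WT 1 to WT 3. KO 1 was the highest library and WT 2 the lowest, and KO 3 lay below 2 of the WT libraries. The Zfpm1 difference of 0.36 (SE 0.37, and 0.19 with the block) was the largest of the 10 in size and was positive in 2 of 3 pairs. It was not past the threshold (limma, adjusted p = 1.00, and 0.763 with the block). Without KO 1 the difference was 0.023, and without WT 2 it was 0.12.

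Gata2, the GATA factor of stem and progenitor cells and of mast cells, had 109, 26.2 and 28.5 FPKM in KO 1 to KO 3, against 82.3, 33.8 and 33.8 FPKM in WT 1 to WT 3. KO 1 and WT 1 stood far above the other 4 libraries. KO minus WT was positive in pair 1 (0.40) and negative in pairs 2 and 3 (-0.35 and -0.24). The Gata2 difference between genotypes was -0.06 (SE 0.56, and 0.17 with the block). It did not pass (limma, adjusted p = 1.00, and 0.962 with the block). Tal1, a partner of the GATA proteins, had 30.1, 24.7 and 20.3 FPKM in KO 1 to KO 3, against 28.3, 18.3 and 18.9 FPKM in WT 1 to WT 3. Tal1 was the 1 factor of the 10 with a positive difference in 3 of 3 pairs (0.09, 0.41 and 0.10), a pattern that 20.4% of all genes tested showed. Its difference was 0.20 (SE 0.25; limma, adjusted p = 1.00).

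Fli1, the ETS factor of megakaryocytes, had a ratio of highest to lowest library of 1.42. It had 56.9, 45.5 and 43.3 FPKM in KO 1 to KO 3, against 61.7, 43.6 and 44.2 FPKM in WT 1 to WT 3. The number 1 libraries of both genotypes were above the others, and the genotypes overlapped. The Fli1 difference was -0.03 (SE 0.22), and with the replicate block its 95% interval spanned folds of 0.79 to 1.22. Runx1, the core binding factor subunit that binds DNA, had 41.1, 12.3 and 20.9 FPKM in KO 1 to KO 3, against 33.5, 15.1 and 17.0 FPKM in WT 1 to WT 3. KO 2 was its lowest library and KO 1 its highest. The Runx1 difference was 0.10 (SE 0.44, and 0.16 with the block). It did not pass (limma, adjusted p = 1.00, and 0.930 with the block).

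Nfe2 had 103, 137 and 92.5 FPKM in KO 1 to KO 3, against 109, 104 and 114 FPKM in WT 1 to WT 3. The KO libraries gave both the highest and the lowest value, and the WT libraries lay between them. Nfe2 averaged 111 ± 23.5 FPKM in KO and 109 ± 5.08 FPKM in WT (SD, n = 3 each), a difference of 0.01 (SE 0.21). Gfi1b, a repressor needed for megakaryocytes and red cells, had 16.9, 28.5 and 12.1 FPKM in KO 1 to KO 3, against 23.6, 20.4 and 18.1 FPKM in WT 1 to WT 3. KO 2 was the highest library and the other KO libraries were the lowest of the 6. The Gfi1b difference of -0.18 (SE 0.31) was the lowest of the 10 and was negative in 2 of 3 pairs.

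Meis1, a homeodomain factor of stem cells and megakaryocytes, had 28.6, 28.9 and 22.8 FPKM in KO 1 to KO 3, against 27.6, 24.5 and 26.2 FPKM in WT 1 to WT 3. Its highest library exceeded its lowest by a factor of 1.27, the smallest such factor of the 10, and Gata2 had the largest at 4.16. Mef2c, a MADS-box factor of muscle and of several blood lineages, had 21.2, 12.3 and 21.4 FPKM in KO 1 to KO 3, against 20.6, 16.6 and 17.8 FPKM in WT 1 to WT 3. The number 2 library was the lowest in both genotypes. The differences were 0.03 (SE 0.20) for Meis1 and -0.04 (SE 0.26) for Mef2c (limma, adjusted p = 1.00 for both).

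With the replicate number as a block the standard errors of the 10 differences lay between 0.14 and 0.20, against 0.20 to 0.56 without it. Their adjusted p-values in the limma fit with the block lay between 0.763 and 0.992. The 95% intervals with the block reached from folds of 0.65 (Gfi1b) up to 1.71 (Zfpm1) on the FPKM + 1 scale. Without it the widest interval, that of Gata2, reached from 0.398 to 2.30. These are intervals for single genes and no limit of detection: the test is adjusted over all 11249 genes, so a change larger than they span could also go uncalled, and 0 calls do not show that the factors were alike in the 2 genotypes.

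**Figure D2:**
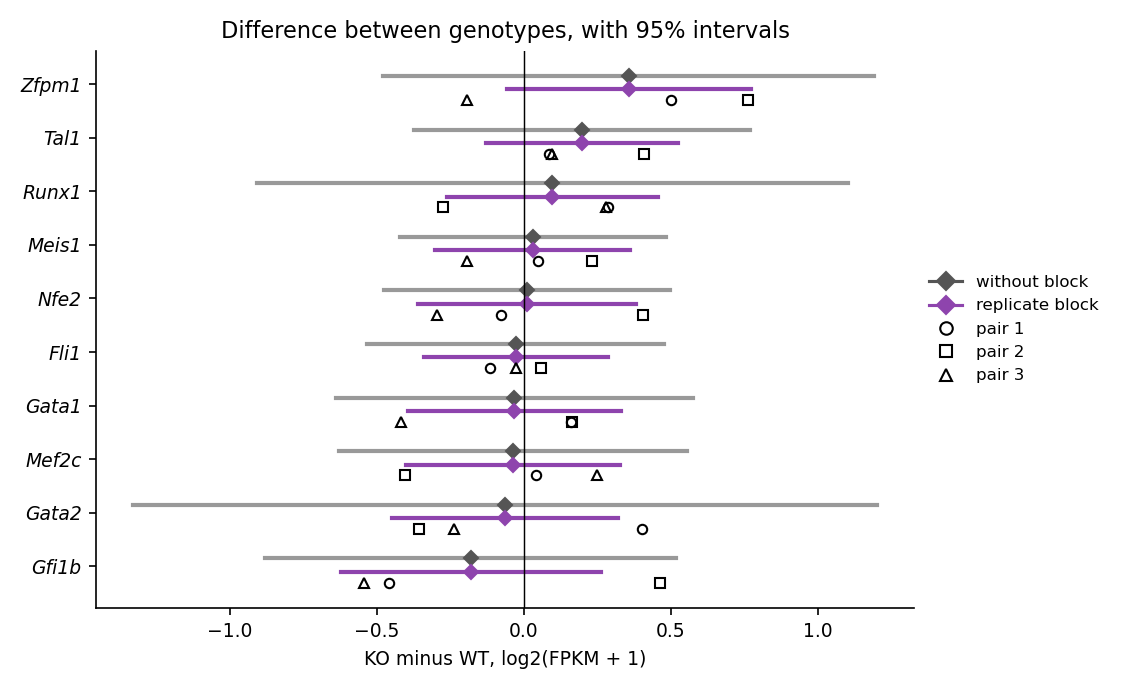
Difference between KO and WT for each transcription factor, in log2(FPKM + 1). Diamonds and lines give the estimate and its 95% interval without the block (grey) and with the replicate block (purple), and open symbols give the 3 pairs; every interval crosses 0, and Zfpm1 and Gfi1b lie at the ends at 0.36 and -0.18.

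The libraries of replicate number 1 differed from the others in several of the factors, in both genotypes. A limma F test of the number beside genotype, chosen after the values were seen, called 3 of the 10, Gata2, Runx1 and Zfpm1, against 35.1% of all genes tested, so the share was near the background. Number 1 differed from the mean of numbers 2 and 3 in 4 factors, all higher, against 35.4% of all genes called and 24.4% called higher. Gata2 was higher by 1.61 (SE 0.18; limma, adjusted p = 0.000844), a fold of 3.05. Runx1 was higher by 1.16 (SE 0.17; limma, adjusted p = 0.00152), Zfpm1 by 0.90 (SE 0.20; adjusted p = 0.00742) and Tal1 by 0.50 (SE 0.16; adjusted p = 0.0325). Gata1 (-0.15, SE 0.17), Nfe2 (-0.06, SE 0.18) and Gfi1b (0.08, SE 0.21) did not pass, nor did Fli1 (0.42, SE 0.15; adjusted p = 0.0524), Mef2c (0.31, SE 0.17) and Meis1 (0.13, SE 0.16). In 5 factors, the 4 called and Fli1, both number 1 libraries lay above the other 4 libraries, as in 32.4% of all genes. Numbers 2 and 3 differed in 0 of the 10 factors, against 4.54% of all genes. In all 10 factors the range of the 3 pair means was wider than the difference between genotypes, as it was in 91.3% of genes tested.

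**Figure D3:**
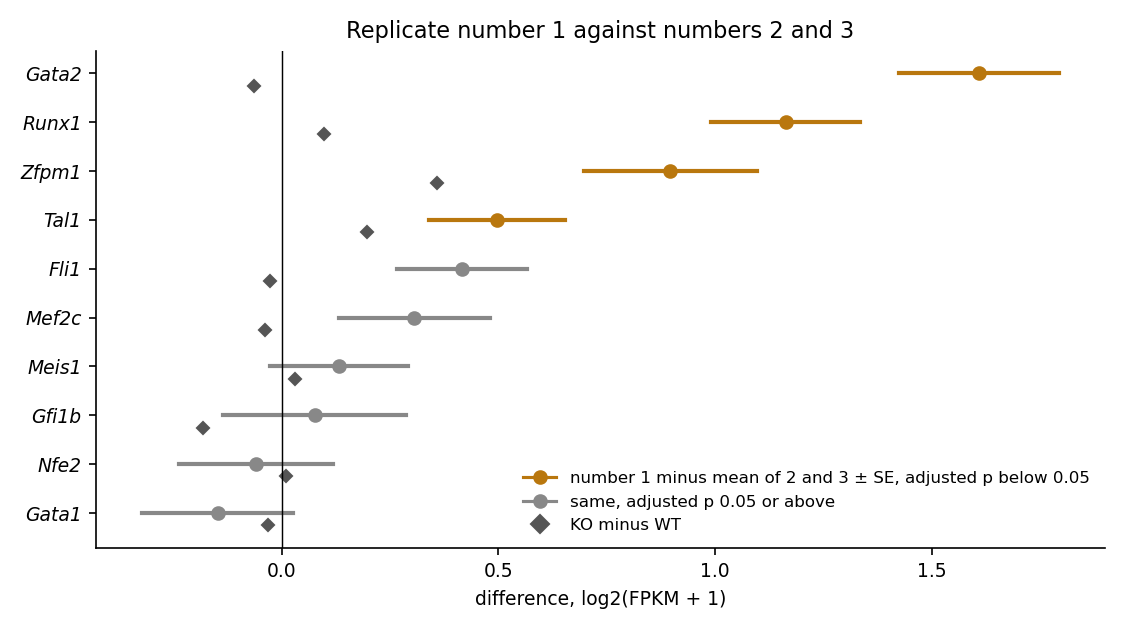
Number 1 libraries minus the mean of numbers 2 and 3 (circles with lines of 1 SE, brown where the adjusted p was under 0.05) and KO minus WT (grey diamonds), both in log2(FPKM + 1). Gata2 (1.61), Runx1 (1.16), Zfpm1 (0.90) and Tal1 (0.50) are the 4 factors called, and their genotype differences are all smaller.

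Several genes that work with the factors were higher in number 1 libraries too, while several of their megakaryocyte target genes were lower. Of 24 complex partners 10 were called higher and 0 lower, and of 14 tested paralogs 9 higher and 0 lower, against 24.4% higher and 11.0% lower over all genes. The split over all genes depended on the scaling, with 16.0% higher and 15.9% lower after quantile normalization and 29.6% higher and 3.39% lower at a common FPKM sum. Under these scalings 9 and 10 partners were higher and 1 and 0 lower, and 9 and 10 paralogs were higher and 0 lower. Cbfa2t3, which encodes the corepressor ETO2, had 26.0 FPKM in KO 1 and 2.33 and 5.13 FPKM in KO 2 and KO 3, and 15.6 FPKM in WT 1 and 3.57 and 4.67 FPKM in WT 2 and WT 3. Of 17 tested target genes 2 were called higher (Gp1ba and Nbeal2) and 7 lower (Pf4, Ppbp, Vwf, Gp9, Tubb1, Rab27b and Clec1b, genes of platelet granules, surface receptors and tubulin); 10 were lower after quantile normalization and 5 at a common FPKM sum. Pf4, which encodes platelet factor 4, had 476 FPKM in KO 1 and 1545 and 772 FPKM in KO 2 and KO 3, and 465 FPKM in WT 1 and 1435 and 1129 FPKM in WT 2 and WT 3. Itga2b, the CD41 gene used for the sort, was lower by 0.43 in number 1 and did not pass (limma, adjusted p = 0.0586). These genes were singled out after their values were seen.

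Other measures moved with replicate number 1 as well. Genes above 0 FPKM numbered 15938 in KO 1 and 15707 in WT 1, and between 13466 and 14858 in the other 4 libraries. Ribosomal protein genes took 14.2% of the FPKM sum in KO 1 and 17.1% in WT 1, and between 19.7% and 27.7% in the others. The 8 mast cell and basophil markers summed to 963 FPKM in KO 1 and 1191 FPKM in WT 1, against 425 to 889 FPKM in the others, and 5 of 7 tested were called higher. The 6 megakaryocyte markers summed to 635 FPKM in KO 1 and 616 FPKM in WT 1, against 941 to 1757 FPKM in the others. Most of each sum was Pf4 (476 FPKM in KO 1 and 465 FPKM in WT 1). Of the 6 markers 2 were called lower in number 1 (Pf4 and Gp9) and 1 higher (Itgb3), so the list did not move as a whole. The 3 eosinophil markers summed to 173 FPKM in KO 1 and 394 FPKM in WT 1, against 439 to 695 FPKM in the others, and 1 was called lower. Of 9 neutrophil markers 3 were called lower and 0 higher, and of 10 monocyte and macrophage markers 3 higher and 1 lower, while the sums of both lists overlapped between number 1 and the others. Among 6 tested stem and progenitor markers 1 was called higher (Kit) and 1 lower (Cd34), and among 5 tested red cell markers 0 were called. Sums of the stem and progenitor list and of the red cell list overlapped as well. The part of these measures in the values of the factors was not tested.

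Ratios of factors within a library cancel the scale of that library. For 4 pairs of factors that mark alternative fates or, for Gata1 and Gata2, successive stages, the log2 ratio of FPKM was compared between genotypes. An exact two-sided permutation test was used, whose smallest possible p with 3 libraries against 3 is 0.1. GATA1 replaces GATA2 as cells mature. The log2 ratio of Gata1 to Gata2 was -2.47, 0.04 and -0.99 in KO 1 to KO 3, against -2.23, -0.49 and -0.79 in WT 1 to WT 3. Gata2 thus exceeded Gata1 in 5 of 6 libraries, most in number 1 of both genotypes, and the genotype difference was 0.03 (exact permutation p = 1).

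FLI1 and KLF1 oppose each other in the choice between megakaryocytes and red cells. The log2 ratio of Fli1 to Klf1 was 2.77, 2.63 and 3.14 in KO 1 to KO 3, against 3.06, 2.56 and 2.53 in WT 1 to WT 3, so Fli1 was well above Klf1 in every library. The difference was 0.13 (exact permutation p = 0.5). GATA1 and PU.1, the myeloid factor encoded by Spi1, likewise oppose each other. The log2 ratio of Gata1 to Spi1 was -2.27, -1.67 and -2.02 in KO 1 to KO 3, against -2.41, -1.15 and -2.17 in WT 1 to WT 3, with Spi1 above Gata1 throughout. The difference was -0.08 (exact permutation p = 0.9).

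Gfi1b and its paralog Gfi1, a repressor of granulocyte and lymphoid progenitors, had a log2 ratio of -0.54, 0.11 and -1.76 in KO 1 to KO 3, against -0.06, 0.36 and -0.51 in WT 1 to WT 3. The ratio was lower in KO in 3 of 3 pairs, by 0.48, 0.25 and 1.25, while the groups overlapped. The mean difference was -0.66 (exact permutation p = 0.4; adjusted over the 4 ratios, p = 1), and over the 3 pairs a sign-flip permutation gave p = 0.25, the smallest it can give. Gfi1 had 24.6, 26.4 and 40.9 FPKM in KO 1 to KO 3, against 24.7, 15.9 and 25.7 FPKM in WT 1 to WT 3. Its difference of 0.45 (SE 0.28) did not pass (limma, adjusted p = 1.00, and 0.683 with the block).

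**Figure D4:**
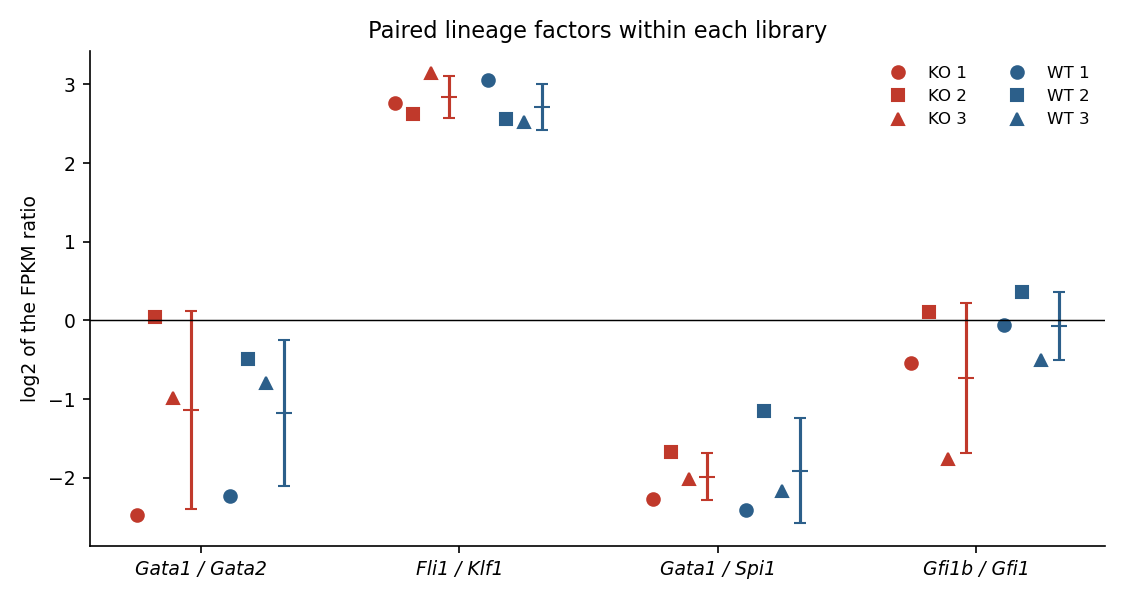
Log2 ratio of FPKM between 2 lineage factors in each library, KO (red) left of WT (blue), 1 symbol shape per replicate number, with the mean and SD of each group. Fli1 exceeds Klf1 and Spi1 exceeds Gata1 in every library, and the Gata1 to Gata2 ratio is lowest in the number 1 libraries at -2.47 (KO) and -2.23 (WT).

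The partners, paralogs and targets of the factors and the factors of other fates gave no call between genotypes either. In these 4 lists 0 genes passed the threshold of the fit without the block and 0 passed with it. At an unadjusted p under 0.05 the fit without the block gave 0 in each list, and with it 1 of 24 partners, 1 of 14 tested paralogs, 1 of 8 tested other-fate factors and 0 of 17 tested targets, against 6.93% of all genes. Over all genes tested, estimates were higher in KO for 7131 and lower for 4118, with a median of 0.06. Beside this background, the complex partners had higher estimates in 16 and lower in 8, with a median of 0.08. Maff, a small Maf protein that can pair with NF-E2, had the smallest p among them, at 6.97 ± 2.15 FPKM in KO and 4.83 ± 0.55 FPKM in WT (SD, n = 3 each). Mafg, another small Maf, was 25.4 ± 6.06 FPKM in KO and 21.3 ± 4.93 FPKM in WT, and Kdm1a, the histone demethylase that GFI1B recruits, was 44.0 ± 11.6 FPKM in KO and 36.7 ± 5.13 FPKM in WT. Hoxa9, a homeodomain partner of MEIS1, was 10.9 ± 2.47 FPKM in KO and 8.87 ± 1.00 FPKM in WT.

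The 14 tested paralogs had higher estimates in 10 and lower in 4 (median 0.09). Next to Gfi1, Bach1, a repressor that binds the same sites as NF-E2, was 24.7 ± 4.32 FPKM in KO and 20.0 ± 3.80 FPKM in WT. Nfe2l1 was 31.8 ± 4.86 FPKM in KO and 27.3 ± 2.03 FPKM in WT, and the ETS gene Ets2 was 8.57 ± 2.43 FPKM in KO and 7.20 ± 1.82 FPKM in WT (SD, n = 3 each). Gata3, Zfpm2, Tal2, Meis2, Meis3 and Mef2b stayed at or under 0.47 FPKM and were not tested. Among 8 tested factors of other fates, 6 had higher and 2 lower estimates (median 0.04). Irf8, a monocyte and dendritic cell factor, was 27.9 ± 9.69 FPKM in KO and 20.4 ± 4.41 FPKM in WT. Cebpa, the granulocyte and monocyte factor, was 135 ± 33.6 FPKM in KO and 108 ± 13.6 FPKM in WT, Klf1 was 6.88 ± 1.78 FPKM in KO and 7.49 ± 0.15 FPKM in WT, and Mitf, the mast cell factor, was 2.89 ± 0.95 FPKM in KO and 2.50 ± 0.70 FPKM in WT.

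Of the 17 tested target genes, 13 had higher and 4 lower estimates (median 0.10), beside 7131 higher and 4118 lower among all genes tested (median 0.06). Itga2b was 118 ± 30.4 FPKM in KO and 101 ± 15.6 FPKM in WT. Gp1ba, a chain of the receptor for von Willebrand factor, was 4.48 ± 3.00 FPKM in KO and 2.93 ± 1.06 FPKM in WT, and Gp9, of the same receptor, was 22.6 ± 5.95 FPKM in KO and 25.7 ± 7.90 FPKM in WT. Nbeal2, needed for alpha granules, was 15.3 ± 8.58 FPKM in KO and 13.1 ± 7.18 FPKM in WT (SD, n = 3 each). Their differences lay between -0.16 (Gp9) and 0.39 (Gp1ba), also the ends of the list.

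**Figure D5:**
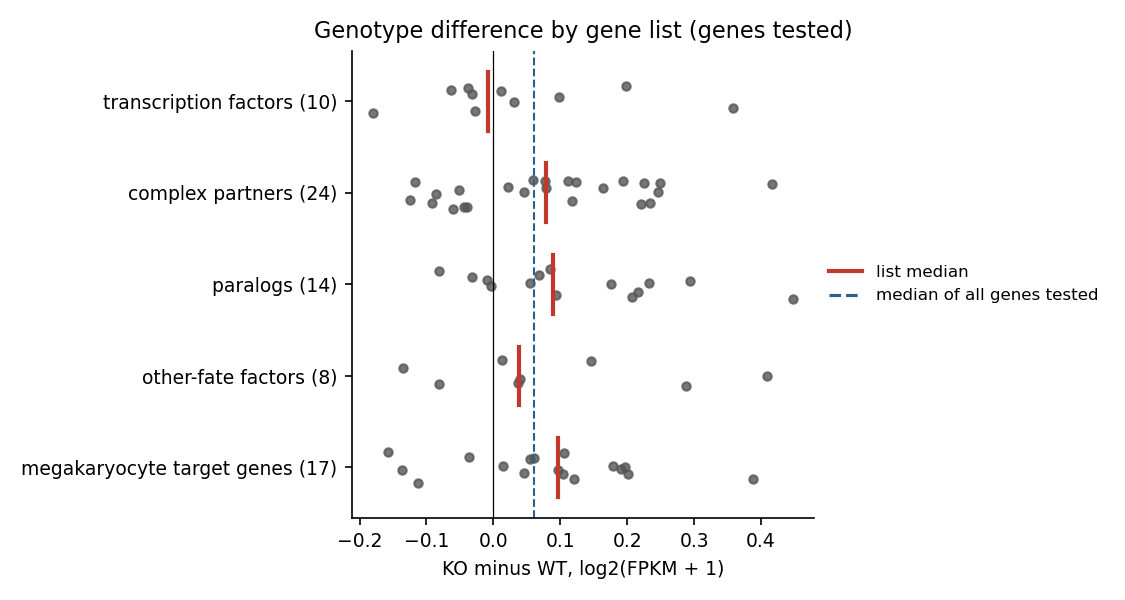
KO minus WT in log2(FPKM + 1) for every tested gene of the 5 lists, with the list median (red) and the median of all genes tested (dashed, 0.06). The number of genes tested stands beside each list; the 10 transcription factors have the lowest median, -0.01, and the target genes the highest, 0.10.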

How the data were processed

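The authors deposited a table of FPKM values to 2 decimals, 1 row per gene symbol. The submitters' processing notes name FastQC, Trimmomatic 0.39, STAR 2.7.0a, RSEM 1.2.31 and build mm9; which annotation and settings were used is not known here. RSEM estimates how fragments are shared among similar transcripts. Groups came from the sample titles. Values were tested as log2(FPKM + 1) with limma 3.58.1 in R 4.3.3 (eBayes with a trend, two-sided, KO minus WT, Benjamini-Hochberg adjustment). Genes entered when 3 or more libraries reached 1 FPKM, 11249 in number, and all 10 factors did. This scale understates changes of low genes. The procedure was tested on simulated data. Depth was approximated from the spacing of low FPKM of genes with 1 transcript, using GENCODE lengths on GRCm38, and is not exact. The numbers were taken to pair the libraries because same-numbered libraries deviated together (every r over 0.1). Deviations from a mean of 3 libraries sum to 0, so a deviation shared by number 1 alone raises r for numbers 2 and 3. Their r is thus no separate evidence of pairing, and r between different numbers was not computed. Same-numbered libraries also shared Y-linked or Xist transcripts, which set number 3 apart but cannot tell number 1 from number 2. Ratios were tested by exact permutation. Genes named outside the 10 factors are Txnip, the ratio partners and the 4 of smallest p in each of 4 lists, beside all genes called between genotypes, markers of sex and cell type, the untested list members and those said to be singled out. The factors, lists and tests were chosen with earlier results of these data known.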

Additional observations from a re-analysis of the deposited data

How the results depend on the processing

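Under 18 alternatives (other pseudocounts and filters, quantile normalization, rescaled sums, the replicate block, libraries or pairs left out) 0 of the 10 factors and 0 genes of the 4 lists were called. Over all genes 2 were called, 3 with the replicate block, 1 without a filter, and 1 to 3 with a library left out. With the block and a pair left out, 36 were called without number 1, 142 without number 2 and 118 without number 3. The block changed no other call. Rescaling to a common FPKM sum moved the median of all genes to 0.22 and turned Gata1 (0.14), Gata2 (0.11), Fli1 (0.15) and Mef2c (0.13) positive; with Rpph1, Rmrp and ribosomal protein genes kept out of the sum the median was 0.13 and they were 0.041, 0.011, 0.047 and 0.034, in that order. Meis1 was -0.027 with quantile normalization, with and without the block. With the block and a pair left out, signs turned for Gata1 (0.16 without number 3), Gata2 (0.083 without number 2, 0.023 without number 3), Fli1 (0.016 without number 1), Nfe2 (-0.19), Meis1 (-0.071) and Mef2c (0.15, these 3 without number 2) and Gfi1b (0.0021 without number 3). With a library left out, differences ranged from -0.25 to 0.18 for Gata1, -0.72 to 0.36 for Gata2, -0.14 to 0.13 for Fli1, -0.34 to 0.50 for Runx1, -0.15 to 0.13 for Nfe2, -0.50 to 0.091 for Gfi1b, -0.028 to 0.14 for Meis1 and -0.16 to 0.21 for Mef2c. Zfpm1 (0.023 to 0.66) and Tal1 (0.060 to 0.39) were positive throughout. Ratio differences ranged from -0.56 to 0.70 (Gata1 to Gata2), -0.018 to 0.30 (Fli1 to Klf1), -0.32 to 0.30 (Gata1 to Spi1) and -1.08 to -0.14 (Gfi1b to Gfi1). The FPKM sum was 1131641 in WT 2, with 30.4% of it from Rpph1 and Rmrp, and between 715205 and 805730 in the other libraries. Rescaling to a common sum therefore lowered the values of WT 2 most. Beyond that scaling, the cause of these shifts was not tested. The number 1 difference, rerun under other scalings after the data were seen, was called for Gata2, Runx1 and Zfpm1 under each of 4 scalings; Tal1 was not called with quantile normalization (limma, adjusted p = 0.0715), and Fli1 was called with it (adjusted p = 0.0417) and with the second rescaling (0.0403). What depth limits was not estimated, since the depths are approximate.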

Other observations

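Of the 21 target genes, 5 stayed under 1.5 FPKM in every library on day 3 of culture, and the other 16 had means over all libraries from 2.12 FPKM (Clec1b) to 970 FPKM (Pf4). Among the 5, Tubb1, the platelet beta-tubulin and a target of NF-E2, had 0.34, 1.47 and 1.07 FPKM in KO 1 to KO 3, against 0.17, 1.33 and 1.24 FPKM in WT 1 to WT 3, while Nfe2 itself ranged from 92.5 to 137 FPKM in KO and from 104 to 114 FPKM in WT. Gp6, the collagen receptor gene, stayed at or under 0.49 FPKM in KO libraries and 1.37 FPKM in WT libraries. Myl9 and Alox12, known targets of human RUNX1, reached at most 0.08 and 0.28 FPKM in KO libraries, against 0.06 and 0.93 FPKM in WT libraries. Myh10, which human RUNX1 represses, had 0.92, 0.29 and 0.38 FPKM in KO 1 to KO 3, against 0.78, 0.49 and 0.44 FPKM in WT 1 to WT 3. These genes were picked after their values were seen.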
